A study of Zea mays with 12 samples.

Results

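The genes rpl29, rpl30, rpl39 and rps13, which code for proteins of the cytosolic ribosome, and the S6 kinase gene S6K were followed in developing maize embryos. Their probe sets, groups of short probes whose combined brightness reports 1 transcript, were found by matching the platform annotation to these names through gene symbols and synonyms. This gave 6 probe sets for the 5 genes, out of 1452 named probe sets for 1108 genes: 2 for rpl39 and 1 for each of the others. The genes were chosen by signals of these same arrays, the 4 ribosomal protein genes by their difference between the inbreds and S6K by that between the hybrids, as far as its values tell. Those differences are therefore given as descriptions without a test.

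The embryos were of the inbred lines B73 and Mo17 and of their hybrids B73xMo17 and Mo17xB73, all at 19 days after pollination and grown in the field, with 3 arrays for each of the 4 genotypes. The first name of a cross is taken to be the seed parent, by convention, since the labels do not say so. The hybrids share their nuclear genomes and differ in the seed parent. Per the growth protocol in the labels, the material of each biological replicate was harvested on a shared date, and the 3 replicates stand for different dates. The title of the series asks whether expression differences between the inbreds are passed on additively, that is, whether hybrids lie at the mean of both parents. Levels below are log2 signals after quantile normalization between arrays, where 1 unit is a doubling, and a signal is comparable between arrays for 1 probe set but not between probe sets.

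A ribosome is built from ribosomal RNA and a large set of proteins, most of which are needed in equal numbers in each particle. Plants keep small families of closely related genes for each of these proteins, so that the transcripts of a protein come from several loci. S6 kinase acts downstream of the TOR kinase, which links nutrient and hormone supply to growth, and its best known substrate is the ribosomal protein S6 of the small subunit. In maize the TOR and S6 kinase pathway has been studied in embryonic axes, where it is tied to the translation of ribosomal protein mRNAs at germination.

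Array quality and tissue were checked once for all results. The median deposited signal of the arrays ran from 192.1 to 313.81, which is why they were normalized. Of the 9 embryo marker genes found on the array, the globulin, oleosin, dehydrin and Viviparous1 genes among them, 8 lay above the 25th percentile of all signals in each genotype, and 1 probe set named GLB1 lay below it. Their summed signal ran from 35960 to 43630 in Mo17, 37430 to 41050 in B73, 41820 to 43900 in B73xMo17 and 43920 to 48680 in Mo17xB73. The 19 endosperm markers, zeins and starch genes in the main, were also bright, with sums of 73800 to 81340 in B73, 55830 to 71470 in Mo17, 79770 to 84220 in B73xMo17 and 73190 to 79760 in Mo17xB73, and 18 of them lay above that percentile. The 5 markers of green tissue summed to no more than 165.6 on any array, and 3 of them lay below that percentile in each genotype. No marker was at 0. The endosperm sum was lowest in Mo17, while gene by gene 4 of the 19 markers were called higher in B73 and 4 higher in Mo17. Of the 9 embryo markers 5 were called higher in B73 and 1 higher in Mo17, although their sums overlapped. Among all probe sets 16.4% were called higher in B73 and 19.5% higher in Mo17. The part of these markers in the differences described here was not tested. In whole embryos, fewer cells of a type and less RNA per cell cannot be told apart.

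Among the large-subunit genes, rpl30 was higher in B73 than in Mo17. Its product, known also as eL30, is a small RNA-binding protein of the large subunit, and in yeast it controls the splicing of its own transcript. In B73 the 3 arrays measured 12.02, 12.07 and 12.09. In Mo17 they measured 11.23, 10.90 and 10.68. All arrays of B73 thus lay above all arrays of Mo17, and the SD was 0.28 in Mo17 and 0.04 in B73. The hybrids lay in between without touching either inbred, at 11.47, 11.55 and 11.39 in B73xMo17 and at 11.33, 11.36 and 11.27 in Mo17xB73. The difference between the inbreds was 1.13 ± 0.10 (SE, n = 3 arrays a line), or 2.18-fold higher in B73. It was 1.27 without Mo17 replicate 1, the highest of the Mo17 arrays.

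The gene rpl29 differed less in signal. Its product, eL29, is a small basic protein of the large subunit that yeast can live without. B73 measured 10.11, 10.15 and 10.14, and Mo17 9.86, 9.66 and 9.80. The inbreds did not overlap, but the gap, 0.36 ± 0.08 or 1.28-fold higher in B73, was the narrowest among the ribosomal protein genes followed here. B73xMo17, at 9.69, 9.88 and 10.04, spanned most of the distance between the inbreds. Mo17xB73, at 9.80, 9.72 and 9.86, lay within the range of Mo17. The order of the means was B73, B73xMo17, Mo17xB73 and Mo17, and the last 3 overlapped.

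The direction was opposite for rpl39, whose product eL39 is a very small protein at the wall of the tunnel through which the new chain leaves the ribosome. By its brighter probe set B73 measured 12.56, 12.69 and 12.67, and Mo17 13.23, 13.15 and 13.30. Both hybrids lay between the lines, B73xMo17 at 13.00, 13.04 and 12.99, and Mo17xB73 at 13.02, 13.16 and 13.00. The highest Mo17xB73 array reached the lowest Mo17 array, while B73 stood clear of all other genotypes. The difference was -0.58 ± 0.06 (B73 minus Mo17), or 1.5-fold higher in Mo17. The name of this probe set carries an "x", by which the maker marks sets whose probes can also match other transcripts.

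The dimmer rpl39 probe set put Mo17 and the hybrids close together and B73 apart. B73 measured 11.85, 12.01 and 12.51, and Mo17 13.18, 13.20 and 13.30. B73xMo17 stood at 13.02, 13.02 and 12.95 and Mo17xB73 at 13.00, 13.01 and 12.98. The gap between the inbreds was -1.10 ± 0.12, or 2.14-fold higher in Mo17, so the probe sets of rpl39 agreed in direction and differed in size. B73 replicate 3 sat well above the other B73 arrays on this probe set and not on the brighter one, and without it the gap was -1.30. Levels above 13 are close to the highest value after normalization, 14.0, which that step makes the same on every array (14.34 at most as deposited). Folds can be understated near the top of the scale, which was not tested.

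For the small subunit, rps13 was higher in B73. Its product, uS15 in the current naming, binds the central part of the small-subunit RNA. The B73 arrays measured 12.84, 12.60 and 12.41, and the Mo17 arrays 11.93, 11.78 and 11.74. B73xMo17 stood at 12.55, 12.48 and 12.34 and Mo17xB73 at 12.50, 12.50 and 12.26. Both hybrids overlapped B73 and each other and lay clear of Mo17. The difference between the inbreds was 0.80 ± 0.10, or 1.74-fold higher in B73.

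**Figure D1:**
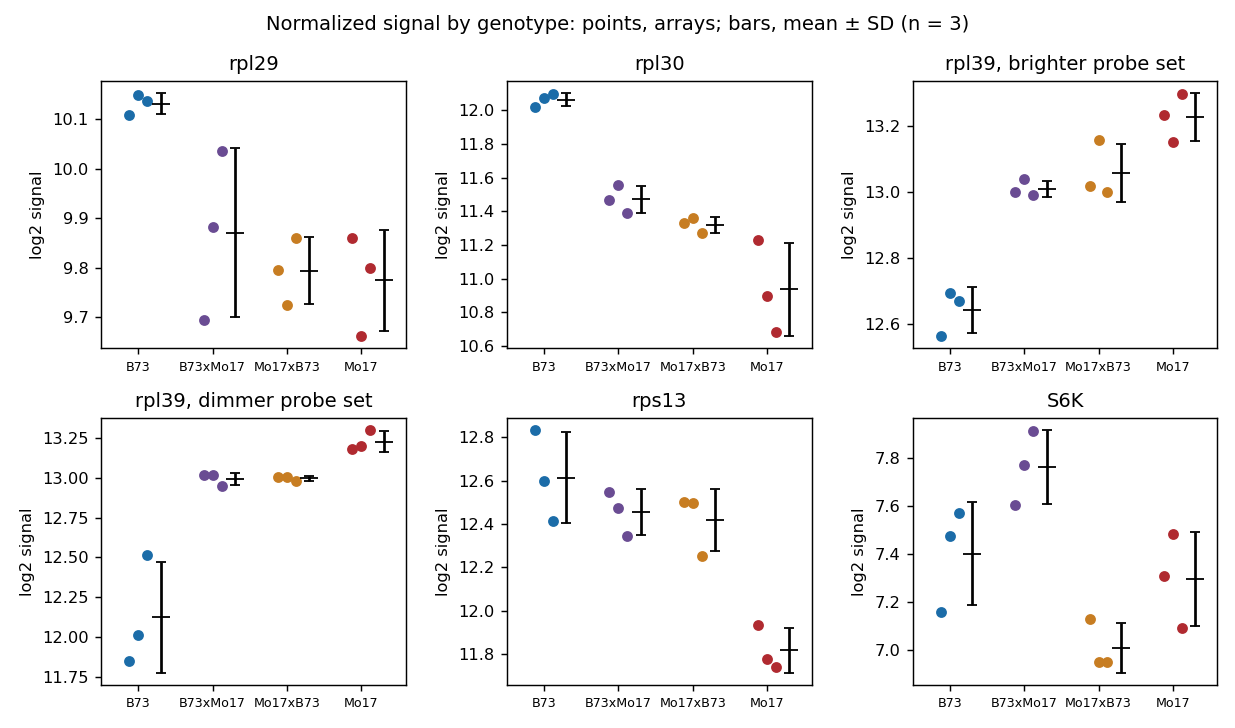
Normalized log2 signal (vertical axes, each with its own range) of the 6 probe sets on the 12 arrays, by genotype, with points for arrays and bars for the mean ± SD (n = 3). rpl30, rpl29 and rps13 were higher in B73 than in Mo17, both probe sets of rpl39 were higher in Mo17, and S6K separated the hybrids, with all 3 B73xMo17 arrays above 7.60 and all 3 Mo17xB73 arrays at or below 7.13.

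The opposite movement of rpl30 and rpl39 can be read within each array, where the overall brightness cancels. With the signals as deposited, the log2 ratio of rpl30 to the brighter rpl39 probe set was -0.58 ± 0.06 in B73 and -2.30 ± 0.22 in Mo17 (mean ± SD, n = 3). It was -1.52 ± 0.09 in B73xMo17 and -1.79 ± 0.08 in Mo17xB73. No genotypes overlapped in this ratio: the hybrid arrays ran from -1.86 to -1.42, between the highest Mo17 array at -2.07 and the lowest B73 array at -0.63. The ratio is a description, since both genes were picked for their gap between the inbreds. It shows unequal differences in signal without saying which of the signals moved. Whether the probes match both lines equally well was not tested.

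The hybrids were next set against the mid-parent, the mean of both inbreds on the linear scale, which addresses additivity. Its error is unrelated to that of the difference between the inbreds when the mean is taken on the log2 scale, and shares a part of it on the linear scale. None of the 6 probe sets departed from it in limma's test for the mean of both hybrids, with adjusted p between 0.272 and 0.925. Over all probe sets 0.528% were called. Without adjustment 4 of the 6 had a p below 0.05, 2 above and 2 below the mid-parent. Over all probe sets 12.3% did, 3.46% above and 8.85% below. The median over the 6 was 0.05, against -0.05 over all probe sets.

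Against the mid-parent rpl30 stood lower by a small amount, at -0.21 ± 0.08 (95% interval -0.37 to -0.05, adjusted p = 0.272), toward its Mo17 level. rpl29 stood at -0.13 ± 0.06 (interval -0.26 to -0.002, adjusted p = 0.396), also on the Mo17 side. rps13 stood at 0.17 ± 0.07 (interval 0.01 to 0.33, adjusted p = 0.381), on the side of B73. These intervals are not adjusted for the number of probe sets tested. None of the 3 reaches beyond a departure of 0.37 in size, a bound that holds for quantile normalization only. With median centring rpl30 stood at -0.29 (limma adjusted p = 0.0928) and rpl29 at -0.21 (adjusted p = 0.104). As deposited they stood at -0.33 and -0.25 (adjusted p = 0.97 for each). The departure of rps13 shrank, to 0.10 with median centring and 0.06 as deposited.

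The brighter rpl39 probe set stood at 0.07 ± 0.04 (interval -0.02 to 0.16, adjusted p = 0.529), a sign that turned with median centring (-0.01) and with the values as deposited (-0.03). The dimmer one stood at 0.22 ± 0.09 (interval 0.03 to 0.41, adjusted p = 0.338), on the side of Mo17. Its B73 level rests in part on B73 replicate 3: without that array the departure was 0.28 and passed limma's threshold (adjusted p = 0.0153), as it did, at 0.32, against the mean of the inbreds' log2 levels (adjusted p = 0.0486). The brighter probe set was not called in either setting.

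Taken singly, neither hybrid was called for the 5 ribosomal protein probe sets, where 0.789% of all probe sets were called for B73xMo17 and 0.528% for Mo17xB73. In Mo17xB73 rpl30 stood at -0.29 ± 0.09 (limma adjusted p = 0.237) and rpl29 at -0.17 ± 0.07 (adjusted p = 0.398), the 2 of the 5 with an unadjusted p below 0.05 there (11.5% of all probe sets). In B73xMo17 there was none (12.7% of all probe sets). Without B73 replicate 3 the dimmer rpl39 probe set was called in each hybrid.

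The same positions can be put on the scale of the gap between the inbreds, where 0 is the mid-parent, 1 the higher line and -1 the lower line. Each position is that of the hybrid's mean log2 level, turned back to a linear signal. rpl30 lay at -0.24 ± 0.14 in B73xMo17 and -0.48 ± 0.07 in Mo17xB73 (position ± SD, n = 3). rps13 lay at 0.51 ± 0.30 and 0.40 ± 0.39 in the same order, and the brighter rpl39 probe set at 0.16 ± 0.09 and 0.34 ± 0.32. The dimmer rpl39 probe set lay at 0.44 ± 0.09 and 0.45 ± 0.03. The SDs are over the linear positions of the single hybrid arrays, with the inbred means taken as fixed. The mean of rps13 stood on the side of B73 in both hybrids, with 1 Mo17xB73 array at -0.04, and all hybrid arrays of rpl30 stood on the side of Mo17. None of these departures was called against the linear mid-parent with all arrays, though that of the dimmer rpl39 probe set was in the settings named above. For rpl29 the values, -0.51 ± 0.90 and -0.90 ± 0.34, were spread widely because its inbreds differ little.

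**Figure D2:**
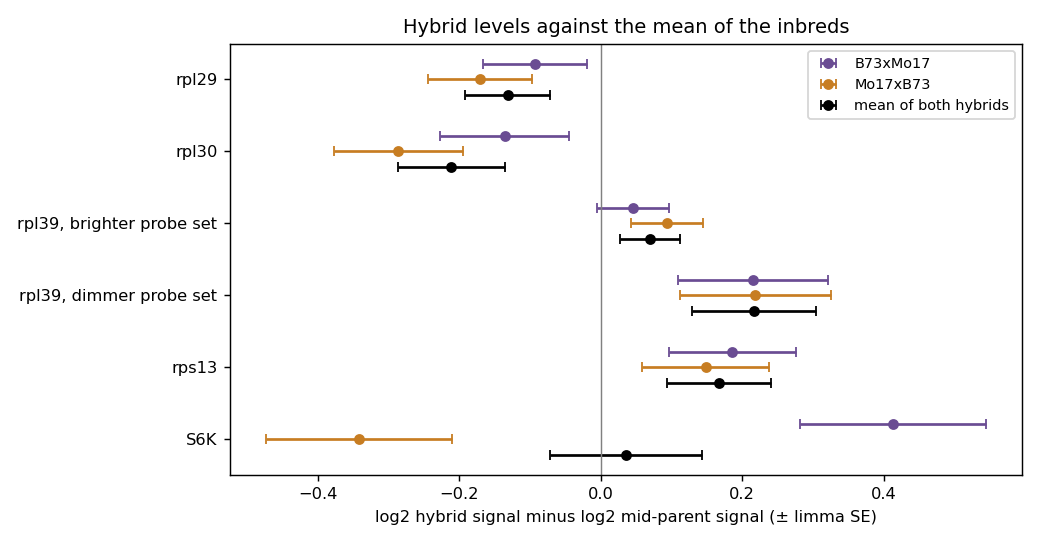
Log2 signal of each hybrid and of the mean of both, minus the log2 mid-parent (horizontal axis), for the 6 probe sets, with limma's standard error. The hybrids lay within 0.29 of the mid-parent for every ribosomal protein probe set, while S6K lay 0.41 above it in B73xMo17 and at -0.34 in Mo17xB73.

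No difference by seed parent was detected for the ribosomal protein genes followed here. Of their 5 probe sets 0 were called between B73xMo17 and Mo17xB73 by limma, and 0 had an unadjusted p below 0.05. Over all probe sets the shares were 0.868% and 11.5%, at which 0 is a likely count for any 5 probe sets. The widest was rpl30, 0.15 ± 0.10 higher in B73xMo17 (95% interval -0.07 to 0.37, adjusted p = 0.65). The brighter rpl39 probe set stood at -0.05 (interval -0.17 to 0.08), rps13 at 0.04 (interval -0.18 to 0.26), rpl29 at 0.08 (interval -0.11 to 0.26) and the dimmer rpl39 probe set at -0.003 (interval -0.26 to 0.26). Differences up to these bounds cannot be told from 0 with 3 arrays a hybrid.

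S6K had another pattern. In B73xMo17 the arrays measured 7.60, 7.77 and 7.92. In Mo17xB73 they measured 7.13, 6.95 and 6.95. The hybrids had the highest and the lowest mean and did not overlap each other, with the means of the inbreds between them. B73 stood at 7.16, 7.47 and 7.57 and Mo17 at 7.31, 7.49 and 7.09, overlapping each other. Mo17 also overlapped Mo17xB73, and B73 lay just above it. The difference between the hybrids was 0.76 ± 0.15 (SE), or 1.69-fold higher in B73xMo17, beside 0.11 ± 0.15 between the inbreds. Leaving out single arrays kept the former between 0.68 and 0.84 and moved the latter from 0.004, without Mo17 replicate 3, to 0.23, without B73 replicate 1. With the values as deposited the inbreds differed by 0.26.

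Set against the mid-parent, S6K lay at 0.41 ± 0.13 in B73xMo17 and at -0.34 ± 0.13 in Mo17xB73, opposite departures that cancel in the mean of both hybrids (0.04 ± 0.11, 95% interval -0.20 to 0.27, limma adjusted p = 0.925). All 3 arrays of each hybrid lay on their own side. The summed endosperm marker signal, given above, was also higher in B73xMo17 than in Mo17xB73, with 79770 and 79760 on the closest arrays, and the embryo marker sum was lower. Gene by gene limma called 1 endosperm marker higher and 1 lower in B73xMo17, and 1 embryo marker higher and 0 lower. Their part in the S6K difference was not tested. The signals of S6K, 129 to 217 as genotype means, are low but above the 25th percentile of all signals, 27.6. The means of B73 (169), Mo17 (157) and Mo17xB73 (129) lay below the lowest median deposited signal of an array, 192.1.

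The TOR kinase gene, which acts above S6K, showed the same order of the hybrids. Its arrays measured 9.39, 9.66 and 9.38 in B73xMo17 and 9.10, 9.02 and 9.01 in Mo17xB73. They measured 9.17, 9.41 and 9.51 in B73 and 8.87, 9.17 and 8.79 in Mo17. TOR was higher in B73xMo17 than in Mo17xB73 on every array, by 0.43 ± 0.12, which did not pass limma's threshold (unadjusted p = 0.00261, adjusted p = 0.137). Between the inbreds it was 0.42 ± 0.12 higher in B73 (adjusted p = 0.0121), although the highest Mo17 array reached the lowest B73 array. That call was lost without B73 replicate 3 (0.34, adjusted p = 0.0548), without Mo17 replicate 3 (0.34, adjusted p = 0.0571) and as deposited (adjusted p = 0.207). Over the 12 arrays TOR had a Pearson r of 0.782 with S6K, rank 7 among 1103 genes, in a comparison chosen after the values were seen. This r draws on the gap of S6K between the hybrids, through which S6K was chosen, so it is a description only.

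The substrate of S6 kinase is encoded by 2 genes on the array. rps6, by its brightest probe set, was 0.25 ± 0.07 lower in B73 than in Mo17 (limma adjusted p = 0.0122) and differed by 0.002 between the hybrids (adjusted p = 0.997). Its other 3 probe sets stood at 0.14, 0.004 and -0.03 between the inbreds and were not called. The call was lost without B73 replicate 3 (adjusted p = 0.0528), without Mo17 replicate 3 (adjusted p = 0.0588) and as deposited (adjusted p = 0.691). The second gene, rps6-2, stood at 0.10 ± 0.06 between the inbreds (adjusted p = 0.212) and 0.03 between the hybrids.

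The rest of the ribosomal protein genes gave the setting for the 4 genes described first. Of 14 others represented by their brightest probe set, 2 were called between the inbreds, both higher in Mo17, 0 were called higher in B73 and 12 were not called. That is 14.3%, where limma called 35.9% of all probe sets, 16.4% higher in B73 and 19.5% higher in Mo17. The 4 genes were taken out of this family for their gaps, which lowers the share over the others. Over all 18 ribosomal protein genes the median size of the difference was 0.11, against 0.35 over all probe sets, and the median difference 0.06, against -0.06. These medians were not matched for brightness. The 18 genes had mean levels from 8.03 (RPS21) to 13.27 (arpp3), while 25% of all signals lay below 4.785.

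The called genes were rps6 and RPS10, at -0.27 ± 0.07 (limma adjusted p = 0.00803), a name shared by cytosolic and organellar proteins whose location was not checked here. As deposited, RPS10 lost its call (adjusted p = 0.685). Among those not called were the acidic stalk proteins, which recruit elongation factors to the large subunit. They ran from -0.11 (arpp1a) and -0.10 (arpp2a-2) through 0.001 (arpp3) to 0.16 (arpp2b) and 0.21 (arpp2a-3, adjusted p = 0.0566). A dimmer probe set of arpp3 was called at -0.24 (adjusted p = 0.00758), against 0.001 for the brightest. RPL10, RPL19, RPL27A and rps27 all lay between 0.02 and 0.08 in favour of B73 and were not called. A dimmer probe set of RPL10 stood at -0.09, on the side of Mo17, and was not called either (limma adjusted p = 0.161).

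**Figure D3:**
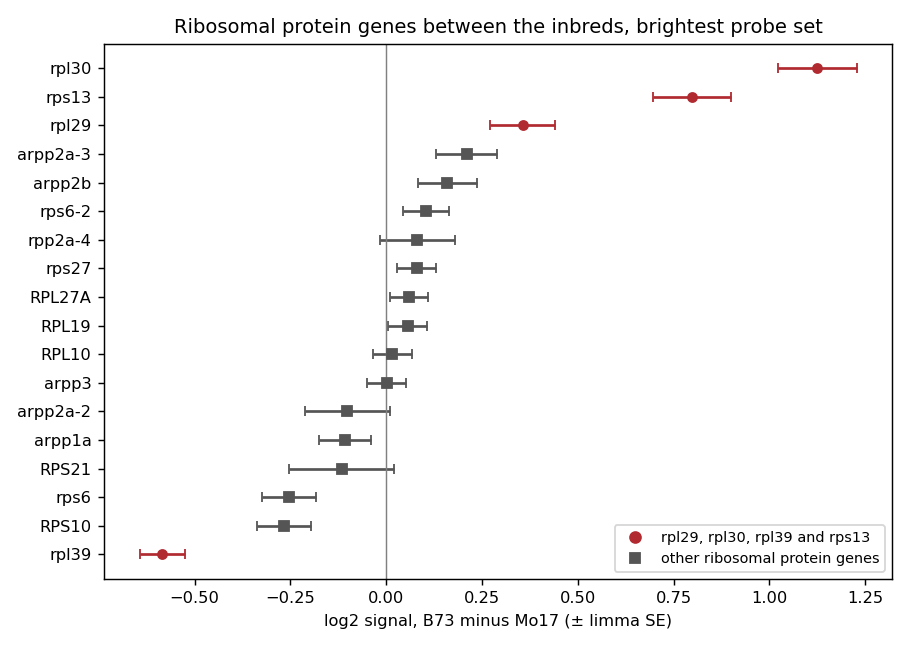
Difference in log2 signal between B73 and Mo17 (horizontal axis, limma's standard error) for the 18 ribosomal protein genes, each by its brightest probe set. rpl30, rps13 and rpl29 lie farthest to the right and rpl39 farthest to the left, and the other 14 genes lie between -0.27 and 0.21.

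In the hybrids none of the 14 other ribosomal protein genes was called by limma, against the mid-parent or between the hybrids, where 0.528% and 0.868% of all probe sets were. None had an unadjusted p below 0.05, where 12.3% and 11.5% of all probe sets did. Against the mid-parent they ran from -0.07 to 0.04 (smallest adjusted p = 0.655), and between the hybrids from -0.23 to 0.05 (smallest adjusted p = 0.581). Over all 18 genes the median size of the departure from the mid-parent was 0.04, against 0.12 over all probe sets, again without matching for brightness.

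Translation factors, which load mRNA and transfer RNA onto the ribosome, were taken as the neighbouring part of the machinery. Of 13 genes 4 were called between the inbreds by limma, 2 higher in each line, a share of 30.8% beside 35.9% of all probe sets. Higher in B73 were eIF3A, a subunit of the initiation factor that holds the small subunit (0.99 ± 0.11, adjusted p = 7.52e-06), and eIFiso-4E, a plant cap-binding protein (0.31 ± 0.07, adjusted p = 0.00403). A dimmer probe set of eIFiso-4E differed by 3.59 ± 0.08 (adjusted p = 1.01e-12), far more than the brighter one. Higher in Mo17 were tif1 (-0.25 ± 0.07, adjusted p = 0.0178) and tif5A, a gene of the factor eIF5A (-0.21 ± 0.05, adjusted p = 0.00407).

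The call of tif1 was lost without B73 replicate 1 (adjusted p = 0.0663), without Mo17 replicate 1 (adjusted p = 0.0739) and without the intensity trend (adjusted p = 0.055). With the values as deposited eIF3A alone of the 4 was called. The brightest probe sets of the elongation factor genes elfa2, elfa3 and EF1-A stood at -0.09, -0.07 and -0.09 and were not called, while dimmer ones of elfa2 (0.59, adjusted p = 0.000435) and EF1-A (0.72, adjusted p = 0.0254) were. Probe sets of this family can match several of its near-identical genes. No translation factor was called against the mid-parent or between the hybrids, with 2 and 1 of 13 at an unadjusted p below 0.05. Over all probe sets 0.528% and 0.868% were called, and 12.3% and 11.5% had such a p.

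Genes whose signal followed each gene most closely over the 12 arrays were sought among 1103 others, each by its brightest probe set. The measure was Pearson's r, which here reflects above all the shared step between the genotypes. Closest to rpl30 were grp3, a glycine-rich protein gene (r = 0.969), and LOC541865 (0.965). Closest to rpl39 were obf3.2, a bZIP transcription factor gene (0.97), and trh2, a thioredoxin gene (0.962), and to rps13 NIT1, a nitrilase gene (0.961), and z1C2, an alpha zein gene (0.947). For rpl29 they were mbd105, a methyl-CpG-binding protein gene (0.95), and ROA (0.91). For S6K they were zpu1, a starch debranching enzyme gene of the pullulanase type (0.873), and siy13053 (0.85). zpu1 was 0.40 higher in B73xMo17 than in Mo17xB73 and siy13053 0.52 higher. That step follows from the search, since S6K was itself chosen for its gap between the hybrids. None of these 10 genes is named as a ribosomal protein gene. Only 14 of the 1103 genes compared are, so this absence says little.

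The replicate number, which stands for a harvest date per the growth protocol, could be followed across genotypes. For rps13 the array of replicate 1 was the highest and that of replicate 3 the lowest in 4 of 4 genotypes. Replicate 1 lay on average 0.13 above its genotype's mean, from 0.08 to 0.22, and replicate 3 at -0.14, from -0.20 to -0.08. This range is narrower than the gap of rps13 between the inbreds. For the other 5 probe sets no replicate number was the highest or the lowest in all genotypes. The pattern was noticed in these values and was not tested.

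**Figure D4:**
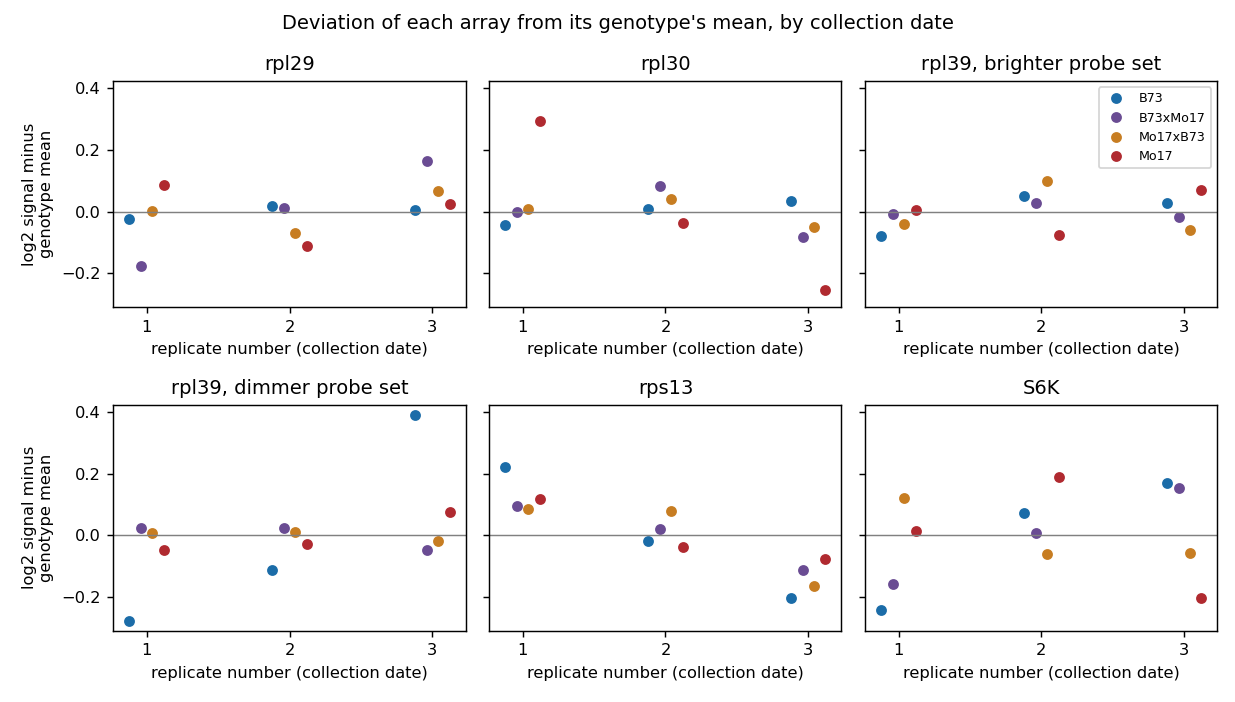
Log2 signal of each array minus the mean of its genotype (vertical axis, shared by all panels) by replicate number, which stands for a harvest date per the growth protocol, for the 6 probe sets. The points of rps13 are all above 0 for replicate 1 and all below 0 for replicate 3, and B73 replicate 3 stands out at 0.39 on the dimmer rpl39 probe set.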

How the data were processed

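Embryo RNA of 4 genotypes was hybridised to 12 one-colour Affymetrix maize arrays. The deposited values are linear intensity signals, made with MAS5 per the submitters' processing notes, with no version, between-array scaling or detection calls given in the sources used here. The number of arrays limits the precision. After 113 control probe sets were left out, log2 signals of 17621 probe sets were quantile normalized and fitted as 4 group means with limma 3.58.1 in R 4.3.3 (lmFit, eBayes with an intensity trend, 8 residual degrees of freedom). P-values are two-sided and Benjamini-Hochberg adjusted over all probe sets, with a threshold of 0.05. The standard error against the linear mid-parent came from the delta method. The fits were tested on simulated data.

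Gene names came from the platform annotation, updated by gene ID through the RefSeq table of Zm-B73-REFERENCE-NAM-5.0, which held all 5 genes. No coordinates were used. The genes and lists were chosen with earlier results of these data known. Named genes are every probe set of the 5 genes, ribosomal protein genes called in a contrast, up to 4 called genes of each other list, and the 2 genes most like each of the 5. Other genes were named as examples after their values were seen. Matches to PDK1 belonged to other kinases and were removed, and raptor, LST8 and TAP46 matched no gene. Replicate numbers stand for shared harvest dates per the labels' growth protocol, yet deviations of same-numbered arrays correlated only between -0.05 and 0.06 (median 0.006) over all probe sets. Alternatives were median centring, the values as deposited, a floor and a filter at the 25th percentile, no trend, a replicate block, the log2 mid-parent and leaving out each array. The deposited values proved not to be normalized between arrays.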

Additional observations from a re-analysis of the deposited data

Results flagged for a closer look

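S6K lay on opposite sides of the mid-parent in the 2 hybrids: every B73xMo17 array was above it and every Mo17xB73 array below it, with a difference between the hybrids of 0.76 on the log2 scale. The difference was not tested, because S6K was chosen with it known.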

How the results depend on the processing

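Of 586 values recomputed under the alternatives, 546 kept their direction and their side of the threshold, with counts within 1.5 times and descriptions within 1 SD of the value reported. Leaving out 1 array gave 384 of them, of which 361 kept. An array of a genotype outside a contrast can hardly move its difference, so many of these could not change. The total also holds the gaps through which the 5 genes were chosen, and is no measure of robustness. With the replicate block 3 other ribosomal protein genes, in place of 2, were called between the inbreds. No gene named for its call lost it under the block, and the count of called probe sets of the 5 genes stayed 0 against the mid-parent and between the hybrids under it. Against the log2 mid-parent 1 probe set, the dimmer one of rpl39, was called (0.32), and leaving out single arrays gave 0 to 1 for the mean of both hybrids and for each hybrid alone. With the values as deposited 0 other ribosomal protein genes, in place of 2, were called between the inbreds, and 1 gene of the translation factors and TOR, in place of 5. The former ran from 1 to 3 without single arrays, with 1 without Mo17 replicate 3. Over all probe sets that scaling called 2963 between the inbreds, 61.2% of them higher in B73, in place of 6321 with 45.7%, and shifted the median between the hybrids to 0.12 and against the mid-parent to -0.11. The cause was not tested.

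Signs turned only for differences that were not called and lay near 0. The brighter rpl39 probe set against the mid-parent went from 0.07 to -0.014 with median centring and to -0.027 as deposited. Between the hybrids rps13 went to -0.004 with median centring and the dimmer rpl39 probe set to 0.022 as deposited. Without single arrays the ranges against the mid-parent were -0.027 to 0.081 for S6K, and between the hybrids -0.0057 to 0.17 for rpl29, -0.076 to 0.0016 and -0.015 to 0.019 for the brighter and dimmer rpl39 probe sets, and -0.045 to 0.094 for rps13. Between the inbreds the brighter rpl39 probe set stood at -0.67 with median centring. The B73 minus Mo17 difference in the ratio of rpl30 to rpl39 was 1.72, and 2.21 with the dimmer rpl39 probe set, an alternative chosen after seeing the data. Detection calls were not used here, so signal over background is unknown.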
